A study of Saccharomyces cerevisiae BY4741 with 5 samples.

Results

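The transcripts described here are the 8 mRNAs of trehalose metabolism in budding yeast, TPS1, TPS2, TPS3, TSL1, NTH1, ATH1, PGM2 and UGP1, as they were recovered with the RNA-binding protein Ssd1. They were picked from the transcript table by the locus names of the pathway, with earlier results of these data known, and are 8 of the 5090 transcripts in it. The assay was CRAC (cross-linking and analysis of cDNAs), in which living cells are irradiated with ultraviolet light, a tagged protein is purified with the RNA fixed to it, and the RNA fragments are sequenced. Cells of 2 independent clones, numbered 3 and 4, carried Ssd1–HTP, that is SSD1 fused at its own locus and C-terminal end to a His–TEV–Protein A tag, followed by the 3′UTR of Kluyveromyces lactis SSD1 and a URA3 cassette. Each clone gave 1 library after transfer to 42°C for 16 min and 1 library from exponential growth at 30°C. The heated cells were moved on filters into pre-warmed medium, whereas the 30°C cultures were cross-linked directly. Filtration and the change of medium thus came together with heat and cannot be told apart from it here. The untagged parent strain BY4741, grown at 30°C, gave a single control library, and no untagged cells were heated. All strains were haploid BY4741 derivatives in synthetic medium lacking tryptophan.

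Trehalose is a disaccharide of glucose that yeast stores as a reserve and builds up rapidly in heat, where it protects proteins and membranes. Phosphoglucomutase turns glucose 6-phosphate into glucose 1-phosphate, and UGP1 encodes the pyrophosphorylase that makes UDP-glucose from it. The trehalose synthase complex then joins UDP-glucose to glucose 6-phosphate (Tps1) and removes the phosphate (Tps2), with Tps3 and Tsl1 as its regulatory subunits, whereas trehalases split the finished sugar into glucose. Ssd1 is a cytoplasmic protein best known for binding mRNAs of cell wall proteins. The counts are a share of what Ssd1 was cross-linked to, so more mRNA in the cell and more Ssd1 per mRNA cannot be told apart in them, and the RNA-seq that could separate these was not analysed here.

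The 42°C libraries held 169549 counts in clone 3 and 413502 in clone 4, and the 30°C libraries held 176962 in clone 3 and 111824 in clone 4, against 3921 in the control. In the control, 560 transcripts had counts, with a median of 5 among them. LEU2, which the parent lacks, had no counts in any library, and MET17, also missing from it, had 1 count in all. URA3 had none either, although the tagged clones carry a URA3 cassette, and whether these counts could have registered its transcript was not tested. The a cell genes MFA1, MFA2, STE2 and BAR1 had from 16 to 158 counts in each tagged library at 30°C. At 42°C they had fewer, from 0 to 39, with 0 and 6 on BAR1. The alpha cell genes MF(ALPHA)1, MF(ALPHA)2 and STE3 had 0 or 1 at 30°C. At 42°C they had none in clone 3. In clone 4 at 42°C, STE3 with 12 and MF(ALPHA)1 with 7 exceeded BAR1. The control had no counts on any of these genes. On SSD1 mRNA itself there were 209 and 302 counts at 42°C, against 95 and 81 at 30°C, while the control showed 2. The libraries differ in total counts, so these raw counts alone show neither a rise with heat nor an excess over the control. Scaled to a common library total (CPM), the means were 982 ± 355 at 42°C and 631 ± 133 at 30°C (SD, n = 2 each). The fitted log2 fold change of SSD1 at 30°C over the control was 0.30, which rests on 2 counts in the control.

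A larger share of the Ssd1 counts fell on trehalose mRNAs after heat shock. Together the 8 transcripts took 1.83% ± 0.311 of all counts at 42°C and 0.169% ± 0.0297 at 30°C (SD, n = 2 each). The libraries at 42°C had 1.61% in clone 3 (exact Clopper-Pearson 95% interval 1.55 to 1.67%) and 2.05% in clone 4 (2.01 to 2.09%). Those at 30°C had 0.190% in clone 3 (0.171 to 0.212%) and 0.148% in clone 4 (0.127 to 0.173%). Both heated libraries thus lay above both unheated ones, by a ratio of the means of 10.8. By exact two-sided permutation the difference had p = 0.333, below which 4 libraries in 2 groups cannot go. None of the 3921 counts in the control fell on these transcripts, for which the same exact interval reaches 0.0940%. The limit of 3 counts, used for the control below, is a share of 0.0765%. These intervals and limits cover counting error only and leave out differences between cultures. They take each count as 1 captured molecule, and would be too narrow if copies remained after PCR duplicates were collapsed.

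**Figure D1:**
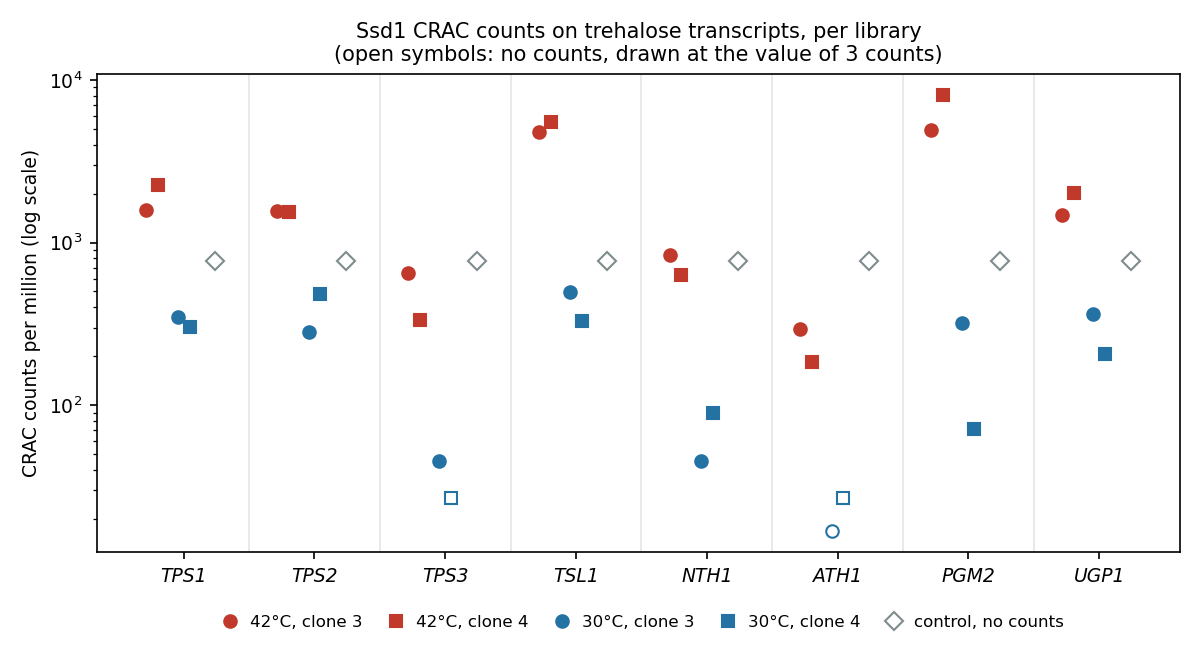
CRAC counts on each of the 8 transcripts as CPM (log axis), with 42°C in red, 30°C in blue and the control in grey, circles for clone 3, squares for clone 4, and open symbols for no counts, drawn at 3 counts of that library. For every transcript both points at 42°C lie above both points at 30°C, as they do for 27.2% of the 2837 transcripts tested. The control has no counts on any of the 8, but it held only 3921 counts in all, on 560 transcripts.

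The 2 catalytic steps of the synthase are encoded by TPS1 and TPS2. TPS1 (YBR126C, chromosome II, 488780 to 490499, minus strand), the trehalose 6-phosphate synthase, had 268 counts at 42°C in clone 3 and 939 in clone 4, against 62 and 34 at 30°C. As CPM, counts scaled to a common library total, this was 1581 and 2271 at 42°C, against 350.4 and 304.0 at 30°C, so that the heated libraries stood apart from the unheated ones by more than either pair differed. Its log2 fold change was 2.66, with a standard error (SE) of 0.48 and an adjusted p = 0.0159 (quasi-likelihood test of edgeR on TMM-normalized counts, Benjamini-Hochberg over 2837 transcripts). TPS2 (YDR074W, chromosome IV, 593799 to 596820, plus strand), the phosphatase of the same pathway, had 264 and 637 counts at 42°C, against 50 and 54 at 30°C. Its CPM were nearly equal in the heated clones, 1557 and 1541, and less so at 30°C, with 282.5 and 482.9. It had the smallest fitted change of the 8, 2.12 on the log2 scale (SE 0.47, adjusted p = 0.0348 from edgeR), which clone 3 showed as a 5.51-fold and clone 4 as a 3.19-fold ratio of CPM. Without 30°C replicate 4, TPS1 was not called (adjusted p = 0.0826 from edgeR, with a range of 6.1e-06 to 0.0826 over its alternatives, here and below with DESeq2 among them). TPS2 was not called without 30°C replicate 3 (0.0712), without 30°C replicate 4 (0.0775) or without 42°C replicate 4 (0.0592), in adjusted p from edgeR. The adjusted p of TPS2 ranged from 0.00103, with DESeq2, to 0.0775 over its alternatives.

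The mRNAs of the regulatory subunits, TSL1 and TPS3, differed widely in their counts. TSL1 (YML100W, chromosome XIII, 70225 to 74035, plus strand), which encodes the large regulatory subunit, had 816 and 2271 counts at 42°C, against 88 and 37 at 30°C. Its CPM were 4813 and 5492 at 42°C, against 497.3 and 330.9 at 30°C, a tight pair far above the other. The log2 fold change was 3.72 (SE 0.43, adjusted p = 0.00318 from edgeR), and TSL1 stayed called in all 11 alternatives. TPS3 (YMR261C, chromosome XIII, 790060 to 793539, minus strand), which encodes a related regulatory subunit, had 110 and 138 counts at 42°C, against 8 and 0 at 30°C. It was higher at 42°C in both clones, by 4.29 on the log2 scale (SE 1.06, adjusted p = 0.0482 from edgeR), a value that rests on 8 counts at 30°C. Its call was lost without 30°C replicate 4 (log2 fold change 3.47, adjusted p = 0.0784), without 42°C replicate 3 (adjusted p = 0.139) and without 42°C replicate 4 (adjusted p = 0.0591), all from edgeR, and its adjusted p ranged from 5.5e-05 to 0.139 over the alternatives. Without 30°C replicate 3 the remaining 30°C library has no counts on TPS3 and gives no fold.

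Densities (TPM, in which counts are divided by interval length and scaled to a common sum), allow the 4 subunit mRNAs to be set side by side. Of their summed TPM, TSL1 held 43.3% ± 0.704 at 42°C and 25.1% ± 6.44 at 30°C (SD, n = 2 here and in the next sentences). TPS1 held 35.5% ± 5.19 at 42°C and 44.0% ± 3.16 at 30°C. TPS2 held 16.5% ± 1.93 at 42°C and 29.5% ± 11.7 at 30°C. TPS3 held 4.66% ± 2.56 at 42°C and 1.47% ± 2.08 at 30°C. The TSL1 share did not overlap between the temperatures, with 43.8% and 42.8% at 42°C against 29.6% and 20.5% at 30°C. Nor did the TPS1 share, lower at 42°C with 31.9% and 39.2% against 46.2% and 41.8%. The TPS2 share was also lower without overlap, with 17.9% and 15.1% against 21.2% and 37.7%. Only the TPS3 share overlapped, with 6.47% and 2.85% against 2.95% and 0. The shares sum to the whole and so are not independent, and at 2 libraries a group no exact permutation test of them can go below p = 0.333. At 30°C they rest on 208 counts in clone 3 and 125 in clone 4.

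**Figure D2:**
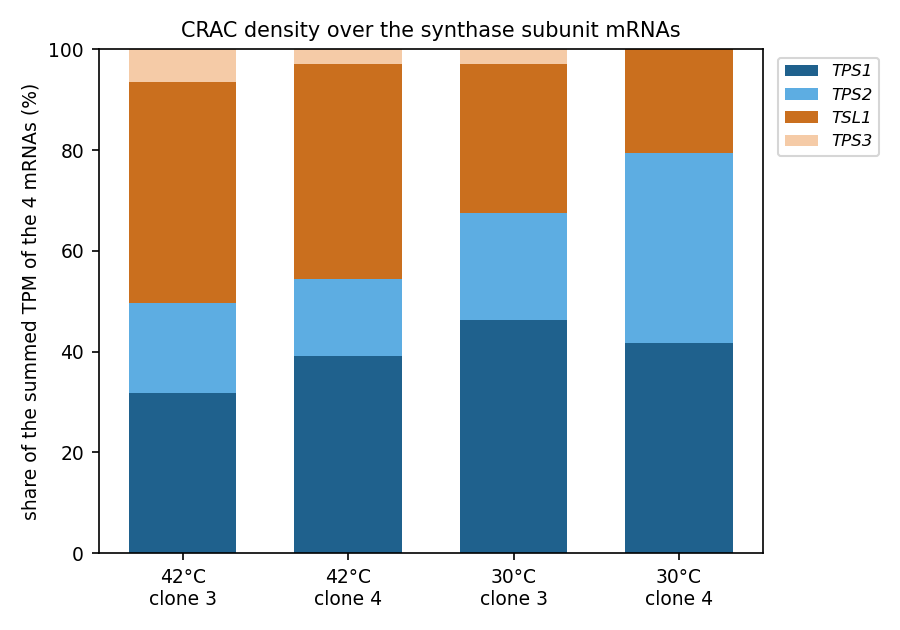
Share of the summed CRAC density (TPM, in percent) held by TPS1, TPS2, TSL1 and TPS3, 1 bar per Ssd1–HTP library, 42°C left of 30°C. TSL1 takes 43.8% and 42.8% of the bars at 42°C, and 29.6% and 20.5% of those at 30°C.

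The transcripts of precursor supply also carried more counts at 42°C. PGM2 (YMR105C, chromosome XIII, 475747 to 477665, minus strand), the major phosphoglucomutase, had 829 and 3323 counts at 42°C, against 57 and 8 at 30°C. It was the most counted of the 8 in both heated libraries, at 4889 and 8036 CPM, while at 30°C its 2 libraries differed widely, with 322.1 and 71.5 CPM. The log2 fold change was 5.09 (SE 0.72, adjusted p = 0.00663 from edgeR). The wide 30°C pair makes the size uncertain: it was 6.58 without 30°C replicate 3 and 4.44 without 30°C replicate 4 on the log2 scale, called in both. UGP1 (YKL035W, chromosome XI, 369820 to 371538, plus strand) had 251 and 833 counts at 42°C, against 64 and 23 at 30°C, which is 1480 and 2015 CPM against 361.7 and 205.7 CPM. Its log2 fold change was 2.71 (SE 0.52, adjusted p = 0.0202 from edgeR), and it was not called without 30°C replicate 4 (adjusted p = 0.101 from edgeR, range 1.8e-05 to 0.101). UGP1 is the only one of the 8 whose interval overlaps another transcript in the table, 27 nt shared with AIM26 on the same strand. AIM26 had 15 and 23 counts at 42°C and none at 30°C, far below UGP1.

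Breakdown of trehalose was represented by 2 less counted transcripts. NTH1 (YDR001C, chromosome IV, 450095 to 452500, minus strand), the neutral trehalase of the cytosol, had 143 and 261 counts at 42°C, against 8 and 10 at 30°C. Its CPM were 843.4 and 631.2 at 42°C, against 45.2 and 89.4 at 30°C, and the log2 fold change was 3.56 (SE 0.63, adjusted p = 0.0150 from edgeR). ATH1 (YPR026W, chromosome XVI, 615354 to 619139, plus strand), the acid trehalase, had 50 and 76 counts at 42°C and none in either library at 30°C. With each 30°C library set to 3 counts, this was at least 10.9-fold higher at 42°C (adjusted p = 0.0249 from edgeR). The adjusted p of ATH1 was 0.0925 without 42°C replicate 3 and 0.0509 without 42°C replicate 4, both from edgeR, within a range of 2.5e-04 to 0.0925 over its alternatives. For NTH1 and ATH1 the ends of the interval are default lengths that the authors added, and reads outside them do not appear in these counts.

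By density, the order of the 8 at 42°C was the same in both clones. PGM2 came first with 3965 ± 1179 TPM (SD, n = 2 here and below), rank 37 of 5090, followed by TSL1 with 1602 ± 70.3 TPM, rank 96, and TPS1 with 1321 ± 271 TPM, rank 106. UGP1 had 1201 ± 201 TPM, TPS2 609 ± 34.7 TPM, NTH1 366 ± 92.0 TPM, TPS3 169 ± 84.3 TPM and ATH1 75.7 ± 28.3 TPM. Of the neighbours in this order, TPS1 and UGP1 overlapped over the 2 libraries and the other pairs did not. At 30°C the densities were lower and closer together, and TPS1 led with 230 ± 21.5 TPM (rank 535), followed by UGP1 with 199 ± 76.2 and TPS2 with 153 ± 57.6. TSL1 had 131 ± 36.4 TPM, PGM2 123 ± 111 and NTH1 33.8 ± 15.9, TPS3 had 15.6 and 0 TPM in its 2 libraries, and ATH1 had no counts. At 30°C the neighbours TPS1 and UGP1, UGP1 and TPS2, TPS2 and TSL1, and TSL1 and PGM2 overlapped. PGM2 in clone 4, with 45.2 TPM, lay just above the higher NTH1 library, with 45.1 TPM.

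Across all 2837 transcripts tested between the temperatures, 108 (3.81%) were called higher and 98 (3.45%) lower at 42°C. Of the 8 trehalose transcripts, 8 were called higher and 0 lower, and all 8 were higher in both clones without overlap between the temperatures. Such a separation was common: 27.2% of the transcripts tested did not overlap in this direction and 25.7% in the other. Their median fitted log2 fold change was 3.64, or 3.50 with ATH1 at its bound, where the median over all transcripts tested was 0.13. TPS3, NTH1 and ATH1 passed the minimum, a mean count of 10 over the 4 Ssd1–HTP libraries, only through their counts at 42°C, and for that reason had to differ. With the minimum set on the 30°C libraries alone, a choice made after the counts were seen, 5 of the 8 were tested and 5 were called higher, against 4.57% of 2256 transcripts. Fewer of the 8 were called when a library was left out, from 4 without 30°C replicate 4 to 7 without 30°C replicate 3. The 6 heat shock transcripts taken for comparison (HSP42, SSA4, HSP104, SSA1, SSA2 and SSA3) had a median log2 fold change of 5.80, and the 8 named cell wall transcripts had one of -2.19. SSA3 had no counts at 30°C and passed the count minimum only through 42°C, so its fitted 9.92 is not a measured fold. The heat shock median uses that value without a bound and is too high to that extent. How the heat shock and cell wall medians differ from that of the trehalose transcripts was not tested.

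**Figure D3:**
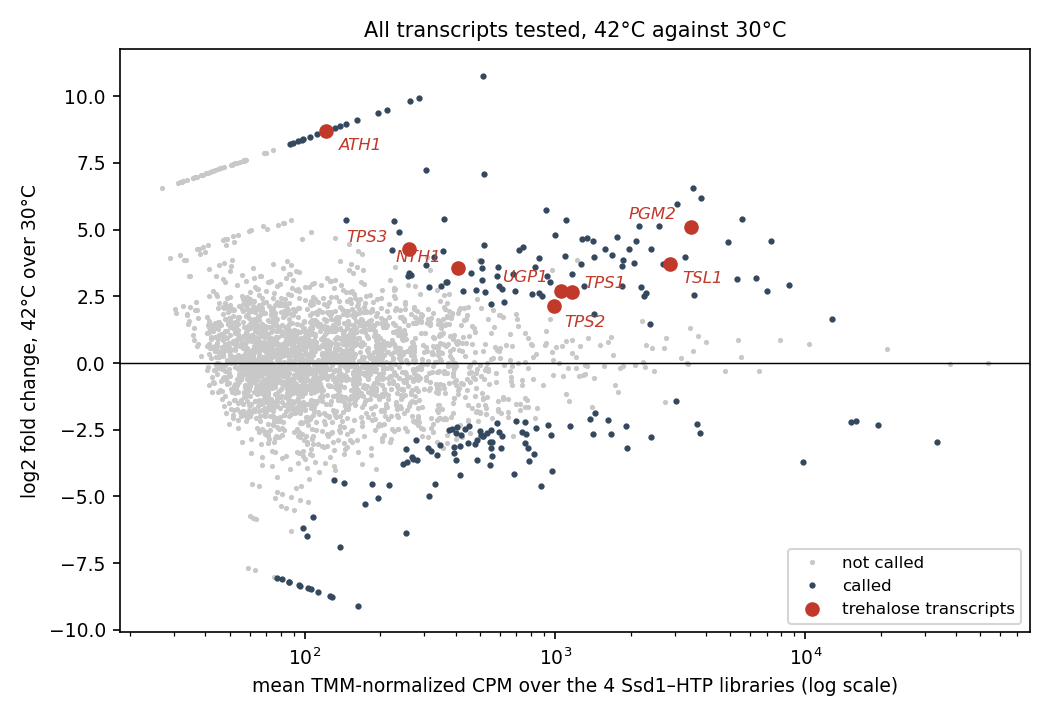
Log2 fold change, 42°C over 30°C, against mean normalized CPM (log axis) for the 2837 transcripts tested, with called transcripts dark and the 8 trehalose transcripts in red. They lie among the 108 called higher; the straight lines of points at the top and bottom, ATH1 among them, are transcripts without counts at 1 temperature, whose fitted size is not a measured fold.

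Other genes around the pathway gave a mixed picture. Among 11 neighbours (sugar kinases, paralogs of the phosphoglucomutase and trehalase, regulators of neutral trehalase and a trehalose transporter), 10 were tested, 2 were called higher and 0 lower, with a median log2 fold change of 1.23. The called ones make glucose 6-phosphate. HXK1, a hexokinase, had 638 and 1535 counts at 42°C, against 70 and 21 at 30°C (log2 fold change 3.74, SE 0.50, adjusted p = 0.00534 from edgeR). GLK1, the glucokinase, had 617 and 1123 counts at 42°C, against 83 and 47 at 30°C (log2 fold change 2.91, SE 0.41, adjusted p = 0.00634 from edgeR). HXK2, the other hexokinase, had 120 and 194 counts at 42°C, against 93 and 62 at 30°C, with a log2 fold change of 0.19 (SE 0.48) that was not called.

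The paralogs of PGM2 and NTH1 did not pass the test. PGM1, the minor phosphoglucomutase, had 0 and 18 counts at 42°C, against 27 and 4 at 30°C, with a log2 fold change of -1.86 (SE 1.87). PRM15, also known as PGM3, a further phosphoglucomutase gene, had 14 and 77 counts at 42°C, against 6 and 0 at 30°C, which is 2.96 on the log2 scale (edgeR, adjusted p = 0.328). NTH2, a second neutral trehalase gene, had 28 and 64 counts at 42°C, against 27 and 0 at 30°C, with a log2 fold change of 1.08 (SE 1.36). The standard errors are too wide to say that these paralogs changed differently from PGM2 and NTH1, and that difference was not tested. The sources used here do not say how reads that match both paralogs were assigned, so the values of PGM1 and PGM2, of NTH1 and NTH2, and of TPS3 and TSL1 are uncertain to that extent. DCS2 (log2 fold change 2.94, SE 0.95), BMH1 (1.08, SE 0.48) and BMH2 (1.38, SE 0.48) were also not called. PRM15 and DCS2 passed the count minimum only through their counts at 42°C and so had to have more counts there.

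UDP-glucose also feeds glycogen, the other storage carbohydrate. Of 7 glycogen transcripts 6 were tested and 2 were called higher, 0 lower, with a median log2 fold change of 2.21. GSY2, the main glycogen synthase, had 120 and 301 counts at 42°C, against 14 and 18 at 30°C (log2 fold change 2.70, SE 0.60, adjusted p = 0.0343 from edgeR). GDB1, the debranching enzyme, had 93 and 309 counts at 42°C, against 12 and 0 at 30°C (log2 fold change 4.18, SE 1.02, adjusted p = 0.0459 from edgeR). GPH1, the phosphorylase, had 116 and 298 counts at 42°C, against 3 and 15 at 30°C, and narrowly missed the threshold (adjusted p = 0.0519 from edgeR). GSY1, GLC3, GPH1, GDB1 and GLG1 passed the count minimum only through their counts at 42°C and so had to have more counts there. GSY2 alone reached the minimum in the 30°C libraries, so the median and the calls of this list lean towards 42°C by selection. MSN2 (log2 fold change 1.27, SE 0.94), MSN4 (-1.74, SE 1.11) and HSF1 (1.14, SE 1.31), which encode stress transcription factors, were not called.

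**Figure D4:**
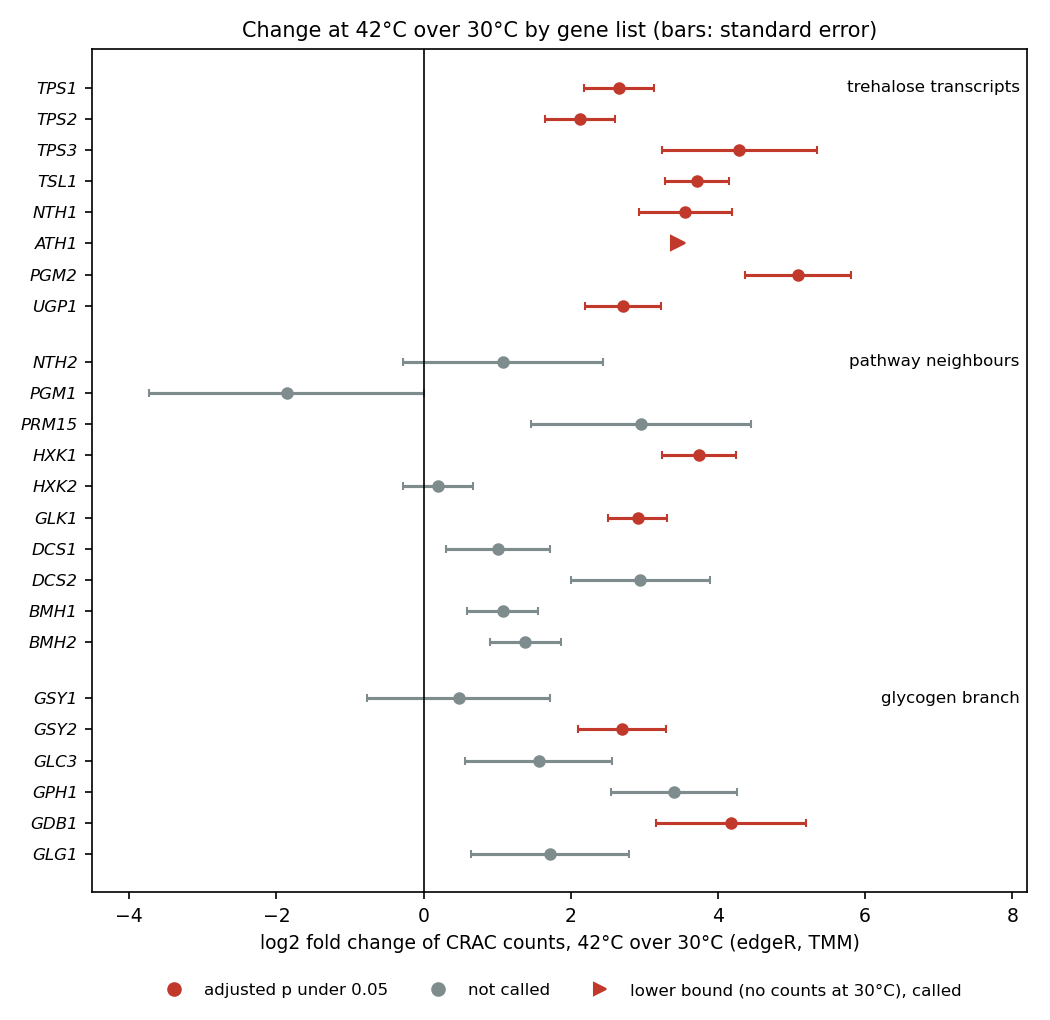
Log2 fold change of CRAC counts at 42°C over 30°C for the trehalose transcripts and 2 further gene lists, with bars for the standard error from edgeR; red points were called at an adjusted p under 0.05, grey points were not, and the triangle of ATH1 marks a lower bound. The 8 trehalose transcripts lie to the right of 0 and are red, against 2 of 10 pathway neighbours and 2 of 6 glycogen transcripts. Of all 2837 transcripts tested, 3.81% were called higher. TPS3, NTH1 and ATH1, and the neighbours PRM15 and DCS2, passed the count minimum only through 42°C and so had to have more counts there. Of the glycogen transcripts shown, GSY2 alone reached the count minimum in the 30°C libraries.

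The control sets how far these counts stand above background. At 42°C the mean CPM of PGM2 was at least 8.45-fold, of TSL1 at least 6.73-fold, of TPS1 at least 2.52-fold, of UGP1 at least 2.28-fold and of TPS2 at least 2.02-fold higher than in the control, when the control is set to 3 counts or 765 CPM. The mean CPM of NTH1, TPS3 and ATH1 lay below that limit, although NTH1 in clone 3, with 843.4 CPM, lay above it. In a fit of all 5 libraries with total counts as library sizes, 35 of 3046 transcripts (1.15%) were called higher at 42°C than in the control by edgeR, TSL1 among them (adjusted p = 0.0148) and PGM2 close to the threshold (adjusted p = 0.0560). Of the 8, 1 was called, from 2 to 6 were called under the alternatives, and both TSL1 and PGM2 were called in all 6 alternatives. With TMM, TPS1, TPS2, NTH1, PGM2 and UGP1 joined TSL1. Heat and the tag differ together here, because the control was not heated, and the spread comes from the Ssd1–HTP libraries alone. Transcripts entered this fit through their counts at 42°C alone, the group in which they could then be called higher.

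At 30°C no library reached the control limit for any of the 8 transcripts. Their summed share was 2.21-fold that of the control when the control is set to 3 counts. The same share would have given 6.64 counts in the control and none was seen. Of the 2256 transcripts tested at 30°C against the control, 20 (0.887%) were called higher by edgeR. TPS1, TPS2, TSL1, PGM2 and UGP1 were tested and 0 of the 5 were called, with 0 at an unadjusted p under 0.05 by edgeR and 0 by DESeq2. The lowest adjusted p over the alternatives was that of TSL1 under TMM, 0.0525 from edgeR. TPS3, NTH1 and ATH1 had too few counts at 30°C to be tested, since the count minimum applied to the 30°C libraries alone.

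Likeness to the 4 synthase subunits was the Euclidean distance from the mean of their centred log2 CPM over the 4 Ssd1–HTP libraries. The subunits differed, with log2 fold changes from 2.12 (TPS2) to 4.29 (TPS3), so this mean is not the pattern of any 1 of them. Among the 656 other transcripts whose mean count was 50 or more, the nearest were SSA1 (distance 0.05), RIE1 (0.12), AHA1 (0.23), MBF1 (0.25) and SSA2 (0.34). SSA1 had 1961 and 4409 counts at 42°C, against 273 and 115 at 30°C, and RIE1 had 201 and 500, against 26 and 11. In the control SSA1 had 6 counts and SSA2 had 11, whereas RIE1, AHA1 and MBF1 had none. The control thus held 1530 CPM on SSA1 and 2805 CPM on SSA2, above their 30°C means of 1286 and 1117 CPM. At 30°C these SSA1 and SSA2 counts therefore did not exceed the control. Of the other trehalose transcripts UGP1 was the nearest at rank 15 (0.63), NTH1 followed at rank 41 (1.09), and PGM2 was at rank 210 (2.41). ATH1 fell below the mean count of 50 and was not ranked. The likeness rests on 4 libraries and 1 change of temperature.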

How the data were processed

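CRAC libraries were made from 2 Ssd1–HTP clones at 42°C and 30°C and from untagged BY4741. The deposited values are read counts per transcript without normalization: the authors trimmed adapters (flexbar), separated barcodes, collapsed PCR duplicates by insert and random nucleotides, aligned to the yeast genome with Novoalign and counted with multiBamCov of bedtools. The submitters' processing notes name the build sacCer3, on which the coordinates are given. The sources used here do not state whether counting used strand. Of 5090 intervals, 4212 have mapped ends and 878 default ends. All 5090 locus names matched the RefSeq R64 gene table, used for names only.

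CPM are counts per total counts of a library. TPM divide counts by interval length first. The temperatures were tested against each other by edgeR 4.0.16 (TMM, quasi-likelihood test, Benjamini-Hochberg, threshold 0.05, mean count of at least 10) in R 4.3.3. The standard error is the log2 fold change divided by the square root of F. Control comparisons used all 5 libraries in 3 groups. Their count minimum was a mean of 10 over the Ssd1–HTP libraries of the temperature compared, without the control. Alternatives changed normalization, count minimum, test (DESeq2 1.42.0) and pairing (a replicate block), or dropped 1 library at a time. Libraries that share a number are of 1 clone and were pooled during library preparation, per the labels, so the numbers pair the samples; the clone differences at 42°C and 30°C had r = -0.02 across 2837 transcripts. The clones are separate cultures.

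Named beside the 8 members were overlapping transcripts, called members of 2 lists, the 5 transcripts of nearest pattern, and heat shock and cell wall lists for comparison. Other list genes were named after their values were seen. Members and lists were chosen with earlier results of these data known. A list of upstream regulators is not reported here as a whole. Sequences of the members were not analysed here. Tests were checked on simulated data. Python 3.11.15, scipy 1.17.1 and matplotlib 3.10.9 were used for levels and figures.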

Additional observations from a re-analysis of the deposited data

How the results depend on the processing

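All fitted log2 fold changes of the 8 transcripts between 42°C and 30°C kept their direction under the alternatives that tested them. The transcripts called higher among all tested were 108, 174 with a mean count of at least 1, and 75 to 193 with a library left out. Those called lower were 98, 165 with DESeq2 and 33 to 121 with a library left out. Of the 8 trehalose transcripts 8 were called, 4 to 7 with a library left out, and 5 with the count minimum set on the 30°C libraries alone, where 3 were not tested. The replicate block, which pairs the samples of a clone, called 8 of 8, with 150 transcripts higher and 144 lower, and changed no call of the 8. Against the control at 42°C, 35 transcripts were called higher, 200 with TMM and 61 to 68 with a library left out, and of the 8 members 1 was called, against 6 with TMM, 3 with a minimum mean count of 50, 3 with DESeq2, 2 with only the 42°C libraries and the control, and 2 to 5 with a library left out. Against the control at 30°C, 20 were called higher, 77 with TMM, 47 with a mean count of at least 50 and 16 to 28 with a library left out, and 0 members throughout, though no more than 5 were tested, and 2 under the higher minimum. The share of counts on the 8 was higher at 42°C by 1.66 percentage points, by 1.03 without PGM2, and by 1.44 to 1.88 with a library left out. The cause of these changes was not tested. The control's 3921 counts limit every statement about background.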
